A study of Mus musculus with 4 samples.

Results

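Replication-dependent histone genes encode the H1, H2A, H2B, H3 and H4 proteins that package newly made DNA. They were taken here as the rows of the deposited count table whose symbol begins with Hist1h, Hist2h, Hist3h or Hist4h, the older names of the histone clusters, and which held at least 10 counts in at least 1 library. The rule gave 59 members out of 35976 gene rows. Of the 69 rows with such a symbol, 10 fell below the count minimum. The members were 5 H1, 15 H2A, 14 H2B, 12 H3 and 13 H4 genes, and 52 of them passed the filter on low counts and were tested (5 H1, 13 H2A, 13 H2B, 12 H3 and 9 H4). Just inside the minimum lay Hist4h4, with 10, 0, 4 and 1 counts in control replicates 1 and 2 and knockdown replicates 1 and 2, and Hist1h4f, with 1, 2, 2 and 10 counts. Just outside it lay Hist1h2bn, with 0, 4, 9 and 9 counts, and Hist1h2bl, with 4, 3, 7 and 8 counts. Hist1h4f thus reached the minimum only through knockdown replicate 2.

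The libraries came from mouse E14 embryonic stem cells, a line from the inner cell mass of a blastocyst, with the strain labelled 12910la. In the 2 control libraries the genotype was labelled wild type. In the 2 knockdown libraries it was labelled knocked down, the target being Lx8-SINE B2, an RNA named after a repeat family, and the agent a short hairpin RNA in the pSuper puro plasmid. All 4 libraries carry the same text on culture, transfection and selection: gelatin, 15% FBS and 10 ng/ml LIF, 1000 ng of vector, then, from 24 h on, 1 µg/ml puromycin for 3 days. Which vector the control cells received, and whether both libraries of a group are separate cultures, was not given. The p-values therefore reflect the spread between the libraries at hand, and that spread may be technical. The label batch1 stands in both knockdown titles and in no control title, so effects of that batch and of the knockdown cannot be told apart. The targeted RNA itself was not analysed here. Libraries held 16383323 to 19867689 counts, the fewest in knockdown replicate 2, and the spread between libraries of a group (the biological coefficient of variation) was 24.9%. Embryonic stem cell markers were present in all 4 libraries, with a summed level of 7179 and 7087 CPM in the controls (CPM are counts scaled to library size, here by TMM) and of 5201 and 5696 CPM in the knockdown libraries.

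These genes lie in clusters, as a rule have no introns and are transcribed in S phase at nuclear bodies that hold NPAT, a coactivator switched on by cyclin E and CDK2. Their mRNAs are the metazoan mRNAs that end without a poly(A) tail: the U7 ribonucleoprotein directs a cut behind a conserved stem-loop, which the protein SLBP binds and through which the mRNA is processed, translated and, when DNA synthesis stops, degraded. Embryonic stem cells have a short G1 phase and spend much of their cycle in S phase. The libraries were made from total RNA with a kit sold for mRNA. Such kits capture poly(A) tails, a step the labels do not describe, so the counts below are those of histone RNA that entered an mRNA library and are not a census of histone mRNA.

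The stem-loop is shown first, since it is what sets these mRNAs apart. Among the 59 members, 33 had an annotated transcript (GENCODE M21, GRCm38) in which a match to the core histone stem-loop lay after the stop codon, 24 to 58 bases behind it (median 31). The match is 16 bases long, and 3 forms were found. They are written as DNA, with the 6 bases of each arm of the stem in capitals and the 4 bases of the loop in lower case.
H1, H2A, H2B and H3 form: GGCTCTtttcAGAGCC
H4 form: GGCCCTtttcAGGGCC
H4 form with a changed loop: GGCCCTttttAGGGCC
The first form stood in 24 members, of which 3 were H1, 9 H2A, 7 H2B and 5 H3 genes. The second stood in 7 H4 genes, and the third in Hist1h4i and Hist2h4. In the other 26 members the searched letters were not in the annotated transcripts, which says nothing of the RNA beyond their annotated ends. In 5 H2B members (Hist1h2bc, Hist1h2be, Hist1h2bp, Hist1h2bq and Hist1h2br) the annotation holds an intron.

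Promoter sequences came from the RefSeq table of GRCm38.p6, which gave windows of 300 bases around the transcription start, most of it upstream, for 53 of the 59 members. Those of 5 members named below are printed 5′ to 3′ on the gene's strand, with motifs on either strand in capitals. The motifs are the octamer ATTTGCAT of H2A and H2B genes and the CCAAT box. They also include the TATA box, searched for as TATAAA, and the AC box of H1 genes, searched for as AAACACA. No pair of these motifs overlaps in these windows.
Hist1h1b (chr13:21780576-21780875, minus strand): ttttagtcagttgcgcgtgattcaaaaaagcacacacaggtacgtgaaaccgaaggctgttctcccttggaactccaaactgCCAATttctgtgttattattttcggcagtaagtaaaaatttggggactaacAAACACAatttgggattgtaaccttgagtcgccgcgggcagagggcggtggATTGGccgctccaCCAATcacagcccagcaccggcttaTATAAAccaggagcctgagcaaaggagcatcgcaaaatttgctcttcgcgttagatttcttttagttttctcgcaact
Hist1h1c (chr13:23738557-23738856, plus strand): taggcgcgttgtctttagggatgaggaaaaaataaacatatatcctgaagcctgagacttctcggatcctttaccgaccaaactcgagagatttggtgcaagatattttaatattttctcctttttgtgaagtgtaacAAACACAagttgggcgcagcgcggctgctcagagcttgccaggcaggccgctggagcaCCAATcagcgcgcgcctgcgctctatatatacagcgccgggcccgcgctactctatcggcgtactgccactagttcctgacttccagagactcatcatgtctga
Hist2h2aa1 (chr3:96245247-96245546, plus strand): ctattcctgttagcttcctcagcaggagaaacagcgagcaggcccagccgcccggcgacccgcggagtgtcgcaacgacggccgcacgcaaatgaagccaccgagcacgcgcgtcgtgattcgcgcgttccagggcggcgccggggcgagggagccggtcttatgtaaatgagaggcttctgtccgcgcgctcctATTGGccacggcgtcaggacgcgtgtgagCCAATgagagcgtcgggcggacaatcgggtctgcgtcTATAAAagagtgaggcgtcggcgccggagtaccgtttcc
Hist1h2bg (chr13:23571150-23571449, plus strand): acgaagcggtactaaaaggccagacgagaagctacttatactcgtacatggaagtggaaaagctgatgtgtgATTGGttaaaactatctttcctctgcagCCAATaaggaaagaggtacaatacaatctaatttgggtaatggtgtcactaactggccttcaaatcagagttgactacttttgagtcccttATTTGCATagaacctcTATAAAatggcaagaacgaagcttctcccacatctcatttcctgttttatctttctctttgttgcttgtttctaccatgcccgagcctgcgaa
Hist1h4i (chr13:22041313-22041612, minus strand): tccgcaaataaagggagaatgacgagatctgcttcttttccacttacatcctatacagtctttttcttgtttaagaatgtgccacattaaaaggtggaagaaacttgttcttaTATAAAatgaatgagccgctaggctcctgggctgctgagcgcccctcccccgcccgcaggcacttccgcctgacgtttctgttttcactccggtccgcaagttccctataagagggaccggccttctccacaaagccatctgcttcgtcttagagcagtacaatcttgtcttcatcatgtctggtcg
CCAAT stood in every H1 (5 of 5), H2A (14 of 14), H2B (12 of 12) and H3 (10 of 10) promoter of the table and in 3 of 12 H4 promoters, against 41.1% of the promoters of all 27025 genes in the table. The octamer stood in 4 of 14 H2A and 5 of 12 H2B promoters and in 0 of the H1, H3 and H4 promoters, against 1.97% of all. The H2B promoter printed here, that of Hist1h2bg, holds it, while those of the more abundant Hist1h2bq and Hist1h2br do not. AAACACA was found in 4 of 5 H1 promoters, in 1 of 14 H2A promoters and in none of the other classes, against 8.22% of all, and TATAAA in 30 of 53 member promoters, against 15.7%. A match of letters is a description of the window and not a site of binding. Matches were taken anywhere in the window, whatever their distance from the transcription start.

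The comparison asked how histone transcripts differed between knockdown and control cells. In both knockdown libraries the summed level of each of the 5 classes lay above both controls, and in knockdown replicate 2 it lay far above knockdown replicate 1. Over the 59 members the sum was 104 and 132 CPM in control replicates 1 and 2, 257 CPM in knockdown replicate 1 and 840 CPM in knockdown replicate 2. The ratio of group means ran from 3.77-fold for H2A to 6.81-fold for linker histone H1. The spread between the knockdown libraries was of the same order as the difference between the groups, and 1 member, Hist1h1b, passed the test.

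H1 summed to 20.4 and 22.6 CPM in control replicates 1 and 2 and to 58.0 and 235 CPM in knockdown replicates 1 and 2, which gives means of 21.5 ± 1.57 CPM and 146 ± 125 CPM (SD, n = 2 each). H2A summed to 15.2 and 18.5 CPM in the controls and to 27.2 and 99.7 CPM in the knockdown libraries (16.8 ± 2.33 against 63.4 ± 51.2 CPM, SD, n = 2 each, 3.77-fold). H2B, the class with the most counts, summed to 46.3 and 50.8 CPM in the controls and to 102 and 287 CPM in the knockdown libraries (48.5 ± 3.18 against 195 ± 131 CPM, SD, n = 2 each, 4.02-fold). In none of these 3 classes did the groups overlap, and in each the controls lay close together while the knockdown libraries lay far apart. H3 summed to 10.9 and 16.9 CPM in the controls and to 26.9 and 87.0 CPM in the knockdown libraries (13.9 ± 4.29 against 56.9 ± 42.5 CPM, SD, n = 2 each, 4.09-fold). H4 summed to 11.5 and 22.8 CPM in the controls and to 42.2 and 131 CPM in the knockdown libraries (17.2 ± 8.02 against 86.8 ± 63.0 CPM, SD, n = 2 each, 5.05-fold). In both classes control replicate 2 lay above control replicate 1, by 1.56-fold for H3 and 1.99-fold for H4, against 1.10-fold to 1.22-fold for the other 3 classes. With 2 libraries against 2 an exact two-sided permutation test cannot go below p = 0.333, so no test was made of these sums.

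**Figure D1:**
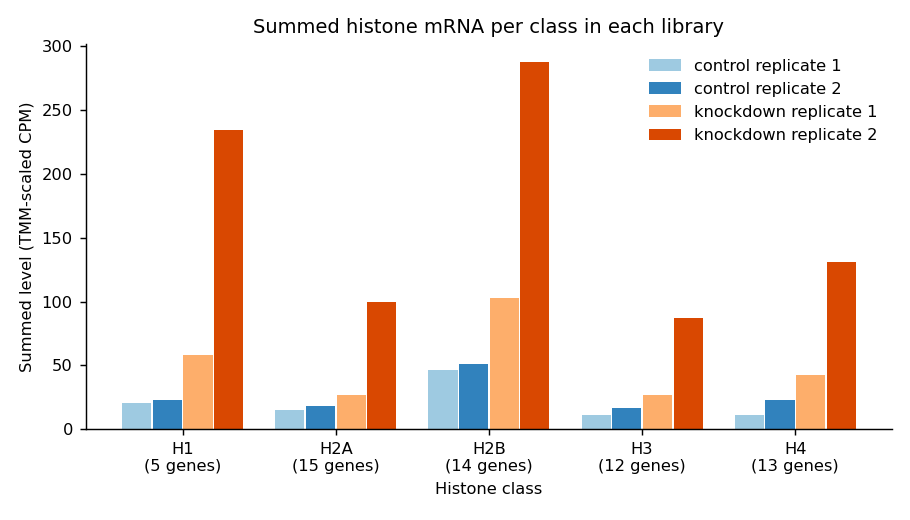
Summed level of the members of each histone class, in TMM-scaled CPM, as 1 bar per library. In every class both knockdown bars stand above both control bars, and knockdown replicate 2 reaches 87.0 CPM (H3) to 287 CPM (H2B).

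Each knockdown library was also set against the mean of the controls. Knockdown replicate 1 stood at 1.62-fold (H2A), 1.93-fold (H3), 2.11-fold (H2B), 2.46-fold (H4) and 2.70-fold (H1) of that mean. Knockdown replicate 2 stood at 5.91-fold (H2A), 5.92-fold (H2B), 6.26-fold (H3), 7.64-fold (H4) and 10.9-fold (H1). The order of the classes depended on the control library. On the log2 scale the ratio of group means was 2.84 for H1 and 2.91 for H4 without control replicate 2, and 1.78 for H2A and 1.75 for H3 without control replicate 1. The step from replicate 1 to replicate 2 was itself 2.80-fold (H2B) to 4.05-fold (H1), so leaving out knockdown replicate 2 lowered the ratio for all members from 4.65-fold to 2.18-fold, and leaving out knockdown replicate 1 raised it to 7.12-fold.

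The make-up of the histone counts differed between libraries, also between the 2 controls. H1 genes gave 19.5% of the 1975 histone counts of control replicate 1 (95% Wilson interval 17.9% to 21.4%) and 17.2% of the 2541 of control replicate 2 (15.7% to 18.7%). They gave 22.6% of the 4914 histone counts of knockdown replicate 1 (21.4% to 23.8%) and 27.9% of the 13833 of knockdown replicate 2 (27.2% to 28.7%). The H1 share was thus higher in both knockdown libraries than in both controls, by more than the counting error. Hist1h1c alone gave 83.9% to 90.9% of the H1 counts of a library. The H2B share was 44.4% and 38.6% in control replicates 1 and 2 and 39.9% and 34.2% in knockdown replicates 1 and 2, and overlapped between the groups. The intervals cover counting error only and not the spread between libraries, and reads without molecular identifiers are not independent molecules.

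Among single members, 1 of 52 was called higher and 0 lower by edgeR's quasi-likelihood test at a Benjamini-Hochberg adjusted p under 0.05 over 16209 genes. Over all tested genes 1.43% were called, 0.876% higher and 0.555% lower, so the number of called members is near what that share gives for 52 genes. At an unadjusted p under 0.05, 33 members stood higher and 0 lower, against 11% of all genes higher. Of the 52 tested members, 40 had both knockdown libraries above both controls, 1 had both below and 11 overlapped, while 27.3% of all tested genes lay apart with the knockdown higher and 24.6% with it lower. The log2 fold change was above 0 in 50 of 52 members, with a median of 1.85 beside 0.01 over all tested genes. The filter bears on these counts. It asks for about 10 counts in 2 libraries, and 8 of the 52 reached that in the knockdown libraries only, so they had to stand higher there, as all 8 did. Another 17 reached it in 1 control and needed a knockdown library, and 10 of these were apart and higher. The other 27 passed on their controls alone, and of these 22 were apart and higher, 1 apart and lower and 4 overlapped, with a median log2 fold change of 1.90. Of all 14732 genes that passed on their controls alone, 25.5% were apart and higher and 27% apart and lower. Over all 59 members, tested or not, 44 were apart and higher, 1 was apart and lower and 14 overlapped. Counts and medians over tested members, here and below, are therefore a description. Members share sequence and regulation and are not replicates of the condition. The number of calls depended on the libraries and the tool. Without knockdown replicate 1 the same test called 24 members (1.61% of all genes tested there were called higher). It called 0 members without knockdown replicate 2 (0.635% of all genes), without control replicate 1 (2.26%) and without control replicate 2 (0.955%). DESeq2 called 18 members higher (3.81% of all genes), edgeR's likelihood ratio test 24 (4.91%), the quasi-likelihood test with no filter beyond 1 count 32 of 59 (3.75%) and with the replicate number as an added term 16 (2.62%), while limma-voom called 0 (0.925%). No member was called lower by any of these.

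By class, the median log2 fold change was highest for H1, at 2.98 (5 tested genes, of which 4 had the knockdown libraries above both controls). It was 2.50 for H4 (9 tested genes, all 9 apart and higher). It was 1.90 for H2B (13 genes, 12 apart) and 1.85 for H3 (12 genes, 9 apart). For H2A it was 1.07, with 6 of its 13 genes apart and higher, 1 apart and lower and 6 overlapping. Over all tested genes 27.3% were apart and higher. The filter was passed in the knockdown libraries only by 3 H4, 3 H2B and 2 H2A genes, which had to stand higher. Another 3 H1, 4 H2A, 2 H2B, 5 H3 and 3 H4 genes reached it in 1 control and needed a knockdown library. In H1, 2 of the 5 genes passed on their controls alone. Of all members, tested or not, 11 of 13 H4, 12 of 14 H2B and 8 of 15 H2A genes were apart and higher. Of the others 2 H4, 2 H2B and 6 H2A genes overlapped. Without control replicate 1 the median for H3, 1.40, lay below that for H2A, 1.43. The differences between classes were not tested.

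**Figure D2:**
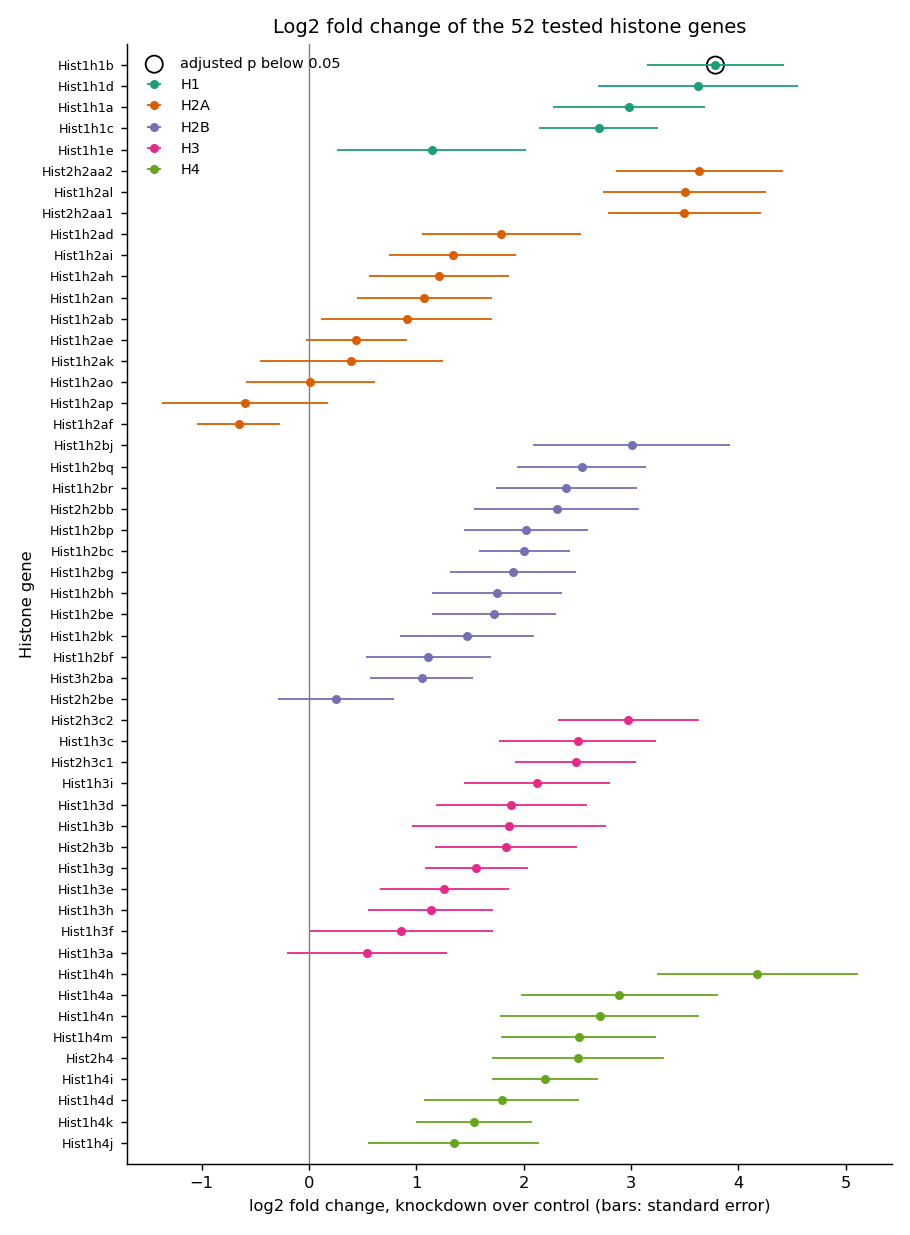
Log2 fold change (knockdown over control, edgeR) of the 52 tested members, grouped by class, with bars for the standard error and a ring where the adjusted p was under 0.05. The points lie right of 0 for 50 members and the ring marks Hist1h1b alone.

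H1 linker histones bind DNA where it enters and leaves the nucleosome. Hist1h1b, which encodes the linker histone H1.5, was measured at 0.422 and 0.622 CPM in control replicates 1 and 2 and at 3.81 and 10.8 CPM in knockdown replicates 1 and 2. Both knockdown libraries lay well above both controls. Hist1h1b rose with a log2 fold change of 3.79 (SE 0.64, edgeR adjusted p = 0.0393), that is 13.8-fold. It held 8 and 12 counts in control replicates 1 and 2, so the fold rests on few control counts. It reached the count minimum of the filter in 1 control and needed a knockdown library to be tested. The call is near its threshold: the adjusted p was 0.0508 with library totals as the only scaling, 0.0644 with limma-voom, and 0.0681, 0.0635 and 0.0760 without control replicate 1, control replicate 2 and knockdown replicate 2. Hist1h1b (ENSMUSG00000058773.2) lies at chr13:21779883-21780625 on the minus strand, as a single exon of 743 bases, and 0% of its 50-base windows occur in a transcript of another gene, so reads of this length would be its own.

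Hist1h1c, the most abundant H1 member, encodes H1.2. It stood at 18.5 and 19.4 CPM in the controls and at 49.2 and 197 CPM in knockdown replicates 1 and 2. The controls were close to each other, and knockdown replicate 2 lay several times above replicate 1. The log2 fold change was 2.70 (SE 0.55, edgeR adjusted p = 0.0566). Hist1h1c alone made up 90.9% and 85.8% of the H1 counts of the controls and 84.8% and 83.9% of those of the knockdown libraries. Without it the H1 ratio of group means was 9.20-fold rather than 6.81-fold. Hist1h1a (H1.1) stood at 0.897 and 1.14 CPM in the controls and at 2.98 and 13.2 CPM in the knockdown libraries (log2 fold change 2.98, SE 0.71, edgeR adjusted p = 0.0793). For Hist1h1d (H1.3) the levels were 0.369 and 0.725 CPM in the controls and 1.62 and 12.1 CPM in the knockdown libraries (log2 fold change 3.62, SE 0.93, edgeR adjusted p = 0.0913). In both genes the groups did not overlap and knockdown replicate 2 stood highest. Hist1h1e (H1.4) was at 0.158 and 0.725 CPM in the controls and at 0.418 and 1.58 CPM in the knockdown libraries, and its groups overlapped.

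**Figure D3:**
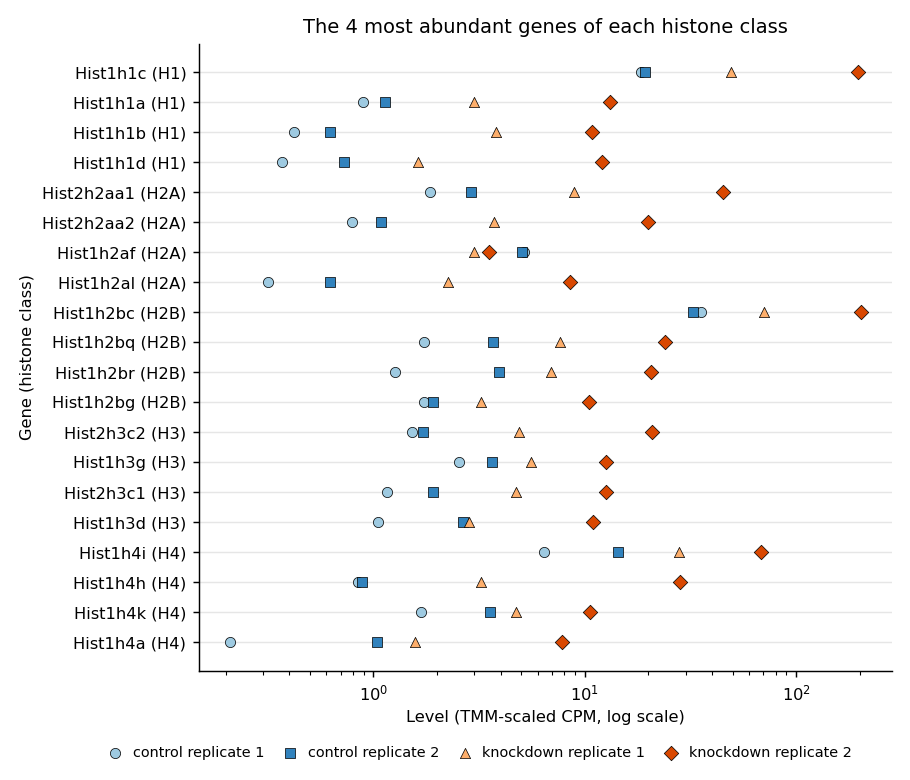
Level of the 4 most abundant members of each class in each library, in TMM-scaled CPM on a log axis. Knockdown replicate 2 is rightmost for 19 of the 20 genes, and Hist1h2af is the exception, with both knockdown points left of both controls.

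H2A, with H2B, forms the dimers at the outer faces of the nucleosome core. Its most abundant member over all libraries was Hist2h2aa1, at 1.85 and 2.90 CPM in the controls and 8.94 and 44.9 CPM in knockdown replicates 1 and 2. Hist2h2aa2 stood at 0.792 and 1.09 CPM in the controls and at 3.71 and 19.9 CPM in the knockdown libraries. In both genes the groups did not overlap and knockdown replicate 2 stood above replicate 1 by 5.03-fold and 5.37-fold. The log2 fold change was 3.50 for Hist2h2aa1 (SE 0.71, edgeR adjusted p = 0.0566) and 3.64 for Hist2h2aa2 (SE 0.78, edgeR adjusted p = 0.0628). All 50-base windows of these 2 genes occur in a transcript of another gene (100% each), so the split of reads between them is uncertain. Hist2h2aa1 made up 12.2% and 15.7% of the H2A counts of the controls and 32.8% and 45.1% of those of the knockdown libraries. Without it the H2A ratio was 2.52-fold, with knockdown replicate 1 at 1.26-fold and knockdown replicate 2 at 3.78-fold of the control mean. Hist1h2al, which GENCODE lists as a processed pseudogene at chr13:51202727-51203065, far from the other Hist1 members, stood at 0.317 and 0.622 CPM in the controls and at 2.25 and 8.56 CPM in the knockdown libraries (log2 fold change 3.50, SE 0.76, edgeR adjusted p = 0.0649). Of its windows, 67.6% occur in a transcript of another gene.

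Of the other 10 tested H2A members, 3 also had both knockdown libraries above both controls (Hist1h2ad, Hist1h2ai and Hist1h2an, named after their values were seen), 1 had both below and 6 overlapped. Hist1h2ai and Hist1h2an passed the filter in the knockdown libraries only, so they had to stand higher there. Hist1h2af was at 5.17 and 5.08 CPM in the controls and at 2.98 and 3.52 CPM in the knockdown libraries. It was the member with both knockdown libraries below both controls, with a log2 fold change of -0.66 (SE 0.38) that did not pass the test (edgeR adjusted p = 0.388). Of its windows, 94.0% are shared. Hist1h2ap, at 0.317 and 0.984 CPM in the controls and 0.261 and 0.607 CPM in the knockdown libraries, and Hist1h2ao, at 0.792 and 0.622 CPM against 0.523 and 0.911 CPM, overlapped between the groups. Their log2 fold changes were -0.60 and 0.01 (edgeR adjusted p = 0.722 and 0.994), and both signs flipped under other settings. These 3 had the lowest log2 fold changes of all tested members.

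For H2B, the leading member was Hist1h2bc, which held 63.9% to 76.6% of the H2B counts of a library. It stood at 35.5 and 32.4 CPM in the controls and at 70.7 and 202 CPM in knockdown replicates 1 and 2. The controls were close to each other, and both knockdown libraries were higher, at 2.08-fold and 5.96-fold of the control mean. Its log2 fold change of 2.01 (SE 0.43) missed the threshold (edgeR adjusted p = 0.0612). Without Hist1h2bc the other H2B genes summed to 2.18-fold and 5.83-fold of their control mean, close to 2.11-fold and 5.92-fold with it. Hist1h2bq was at 1.74 and 3.68 CPM in the controls and 7.63 and 24.0 CPM in the knockdown libraries (log2 fold change 2.54, SE 0.60, edgeR adjusted p = 0.0790). Hist1h2br was at 1.27 and 3.94 CPM against 6.95 and 20.6 CPM (log2 fold change 2.40, SE 0.66, edgeR adjusted p = 0.106). The levels of both moved in parallel, and 97.3% and 88.5% of their windows are shared with other genes. Hist1h2bg, whose promoter with the octamer is printed above, was at 1.74 and 1.92 CPM in the controls and 3.24 and 10.5 CPM in the knockdown libraries (log2 fold change 1.90, SE 0.59, edgeR adjusted p = 0.131). Outside the Hist1 and Hist2 clusters, Hist3h2ba was at 1.21 and 1.55 CPM in the controls and at 2.30 and 3.46 CPM in the knockdown libraries, a smaller step that did not overlap between the groups (log2 fold change 1.05, SE 0.48, edgeR adjusted p = 0.279).

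Hist2h2be was the H2B member whose groups overlapped, at 0.950 and 1.81 CPM in the controls and 1.88 and 1.40 CPM in the knockdown libraries (log2 fold change 0.25, SE 0.54, edgeR adjusted p = 0.842). It has an annotated exon of 2620 bases in which the searched stem-loop was not found, and 0% of its windows are shared. It was picked out here after its values were seen.

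H3 and H4 form the tetramer at the centre of the nucleosome core. Among H3 genes, Hist2h3c2 was at 1.53 and 1.71 CPM in the controls and at 4.91 and 20.7 CPM in knockdown replicates 1 and 2 (log2 fold change 2.97, SE 0.66, edgeR adjusted p = 0.0681). Hist2h3c1 was at 1.16 and 1.92 CPM in the controls and at 4.76 and 12.6 CPM in the knockdown libraries (log2 fold change 2.48, SE 0.56, edgeR adjusted p = 0.0703). Both genes kept the order control, knockdown replicate 1, knockdown replicate 2 with no overlap. Hist1h3g, the H3 member with the highest control level per length, was at 2.53 and 3.63 CPM in the controls and 5.59 and 12.6 CPM in the knockdown libraries (log2 fold change 1.56, SE 0.48, edgeR adjusted p = 0.131). Hist1h3d was at 1.06 and 2.64 CPM in the controls and 2.82 and 10.9 CPM in the knockdown libraries (log2 fold change 1.89, SE 0.71, edgeR adjusted p = 0.196), so control replicate 2 almost reached knockdown replicate 1. In all 12 tested H3 genes knockdown replicate 2 was at least 2-fold above knockdown replicate 1.

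Among H4 genes, Hist1h4i was at 6.44 and 14.4 CPM in the controls and at 27.9 and 67.8 CPM in the knockdown libraries. The controls differed from each other by about as much as control replicate 2 did from knockdown replicate 1 on a log scale, yet the groups did not overlap (log2 fold change 2.20, SE 0.49, edgeR adjusted p = 0.0698). Hist1h4h had the largest log2 fold change of all tested members, 4.18 (SE 0.93, edgeR adjusted p = 0.0696), from 0.844 and 0.881 CPM in the controls and 3.24 and 28.3 CPM in the knockdown libraries. Its fold rests mainly on knockdown replicate 2, which was 8.73-fold above replicate 1. Hist1h4k was at 1.69 and 3.58 CPM in the controls and 4.76 and 10.6 CPM in the knockdown libraries (log2 fold change 1.54, SE 0.54, edgeR adjusted p = 0.173). Hist1h4a was at 0.211 and 1.04 CPM in the controls and 1.57 and 7.83 CPM in the knockdown libraries (log2 fold change 2.89, SE 0.92, edgeR adjusted p = 0.141).

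Per annotated length, the order of the members differed little at the top. In the controls the highest levels per kilobase of exon were those of Hist1h2bc (30.7 and 28.1 CPM per kb), Hist1h4i (8.86 and 19.8 CPM per kb), Hist1h2af (12.96 and 12.73 CPM per kb) and Hist1h1c (11.9 and 12.4 CPM per kb), of which the last 3 do not differ beyond the spread between the controls. In knockdown replicate 2 they were those of Hist1h2bc (175 CPM per kb), Hist1h1c (126), Hist1h4i (93.3), Hist2h2aa1 (76.7) and Hist1h4h (60.2). Hist1h2af, among the leading members of the controls, was at 7.47 and 8.83 CPM per kb in the knockdown libraries.

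The knockdown libraries lay further apart in the histone genes than in most other genes. Knockdown replicate 2 was at least 2-fold above knockdown replicate 1 in 40 of 52 members (76.9%), against 4.63% of all tested genes. It was the highest of the 4 libraries in 47 of 52 members, against 25.7% of all. Knockdown replicate 1 stood above both controls in 41 of 52, against 36.8% of all. The 8 members that passed the filter in the knockdown libraries only had to do so. Of the 27 members that passed on their controls alone, 22 had both knockdown libraries above both controls. The share over all genes that passed on their controls alone was 25.5%. The median log2 ratio to the control mean was 0.85 in knockdown replicate 1 and 2.32 in knockdown replicate 2. Over all tested genes it was -0.00 and -0.01. Control replicate 2 lay above control replicate 1 in 40 of 52 members, against 50.1% of all genes, with a median log2 ratio of 0.56 between them. The members' median standard error was 0.66, beside 0.30 over all genes. How much of it comes from low counts and how much from the spread between libraries was not tested.

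**Figure D4:**
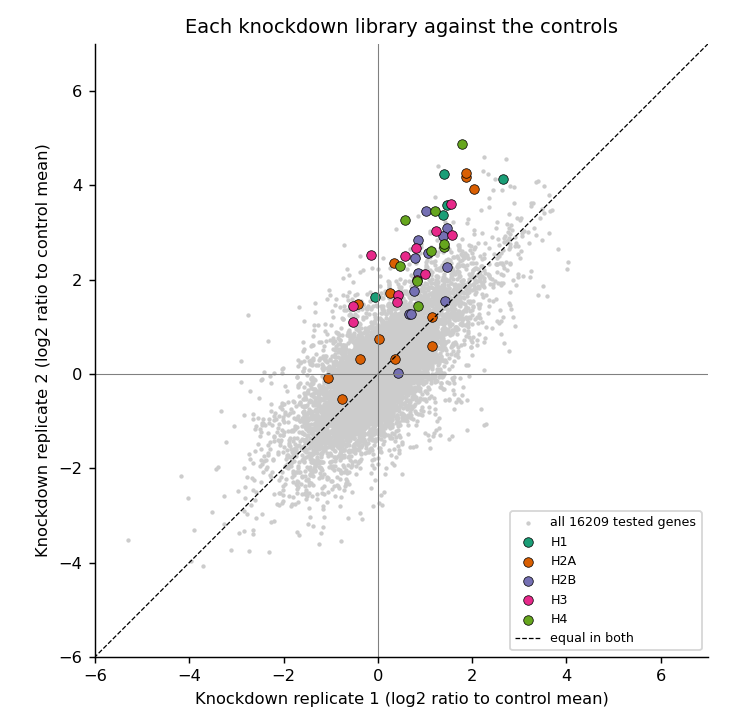
Log2 ratio of each knockdown library to the control mean (log2 of CPM plus a pseudocount of 0.1), replicate 1 on the x axis and replicate 2 on the y axis, for all 16209 tested genes in grey and the tested members in colour by class. Most members lie right of 0 and well above the dashed line of equality, with medians of 0.85 on the x axis and 2.32 on the y axis.

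The higher levels were spread over the genome positions of the family. Of the 59 members, 49 carry Hist1 symbols on chromosome 13, 8 lie in the Hist2 cluster on chromosome 3, and 1 each lies on chromosomes 11 and 6. For the 43 tested Hist1 genes the median was 1.79 on the log2 scale, with 32 apart and higher. For the 8 Hist2 genes it was 2.49, with 7 apart and higher. Among all tested genes 27.3% were apart and higher. The counts include the 8 members that passed the filter in the knockdown libraries only and had to stand higher. Cut at gaps of 100 kb, the Hist1 members fell into 3 blocks and the distant Hist1h2al. The block at chr13:21716422-21837530 had a median of 1.54 over 15 tested genes, with 12 apart and higher. That at chr13:22035164-22043676 had 1.84 over 4 genes, with 3 apart, and that at chr13:23531050-23764406 had 1.79 over 23 genes, with 16 apart. No block stood out against the range within it, which reached from -0.60 to 3.79 in the first and from -0.66 to 4.18 in the last.

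Members were also grouped by the annotated end of their transcripts, and the groups overlapped widely. Of the 33 members with a stem-loop, 17 have a transcript annotated for 100 or more bases beyond it. The 14 tested genes of this kind had a median of 1.89 on the log2 scale, with 12 apart and higher. Another 16 end within 100 bases of the stem-loop, and their 14 tested genes had a median of 1.94, with 9 apart and higher. The 26 members with no match had a median of 1.55 over 24 tested genes, with 19 apart and higher. The share apart and higher among all tested genes was 27.3%. These counts, too, include the 8 members that passed the filter in the knockdown libraries only and had to stand higher. In 10 members the letters AATAAA, the usual poly(A) signal, stood behind the stem-loop, Hist1h1c and Hist1h1d among them. Whether the counted reads came from cleaved or from polyadenylated histone RNA was not tested.

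Copies resemble each other, which limits what can be said of a single gene. The median member shared 57.0% of its 50-base windows with a transcript of another gene, and 31 of 59 members shared more than 50%. The H1 genes are the exception, with 0 of 5 above 50%, so the H1 values above are the least exposed to reads placed on the wrong copy. No source used here says how reads that fit several genes were counted. Exons of 21 members overlap an exon of another annotated gene. In 2 of these, Hist1h1e and Hist1h2be, the partner is itself in the table, and since the strand setting is not given, reads of overlapping genes cannot be told apart.

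Genes that serve the synthesis, processing and decay of histone mRNA were not called higher. Of 7 genes for histone transcription, 1 was called lower and 0 higher, against 0.555% and 0.876% of all tested genes. This was Ccne1, which encodes cyclin E1 and which was at 230 and 185 CPM in the controls and 95.9 and 99.4 CPM in the knockdown libraries. It fell, with a log2 fold change of -1.09 (SE 0.18, edgeR adjusted p = 0.0389). The median of the list was -0.22, and Npat itself was at 60.6 and 94.2 CPM in the controls and 70.3 and 62.6 CPM in the knockdown libraries. Of 10 genes for 3′ end processing 0 were called by edgeR, with 1 at an unadjusted p under 0.05 and a median of -0.21. Slbp was at 119 and 125 CPM in the controls and 92.8 and 104 CPM in the knockdown libraries (log2 fold change -0.31, SE 0.17, edgeR adjusted p = 0.362). The most abundant of this list were Srrt, with a log2 fold change of 0.04, and Sympk, with -0.18. Of 9 genes for histone mRNA decay 0 were called, with 2 at an unadjusted p under 0.05 and a median of -0.12. Upf1, the helicase that starts the decay, had a log2 fold change of 0.28 (SE 0.19, edgeR adjusted p = 0.462), and Dcp2, a decapping enzyme, one of -0.48 (SE 0.19, edgeR adjusted p = 0.222).

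Of 13 genes for histone chaperones, which carry new histones to DNA, 1 was called lower and 0 higher (0.555% and 0.876% of all genes). Their median was -0.34. Chaf1b, a subunit of the assembly factor CAF-1, was at 112 and 87.9 CPM in the controls and 46.8 and 45.2 CPM in the knockdown libraries and fell, with a log2 fold change of -1.12 (SE 0.20, edgeR adjusted p = 0.0423). Genes of DNA replication in S phase were called in 0 of 22 cases, with 10 at an unadjusted p under 0.05. Their log2 fold change was below 0 in 21 of 22, with a median of -0.41, and in 15 both knockdown libraries lay below both controls, against 24.6% of all genes. The most abundant of them, Mcm5 and Mcm7, subunits of the replicative helicase, had log2 fold changes of -0.41 (SE 0.20, edgeR adjusted p = 0.295) and -0.26 (SE 0.22, edgeR adjusted p = 0.565). The summed level of the 22 genes was 7400 and 5740 CPM in the controls and 5145 and 4525 CPM in the knockdown libraries. It was lowest in knockdown replicate 2, where the histone sum was highest. In bulk RNA, fewer cells in S phase and less RNA per cell cannot be told apart.

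Histone genes whose mRNAs are polyadenylated were not higher as a list. Of 11 such genes 0 were called by edgeR and 0 had an unadjusted p under 0.05, with a median log2 fold change of -0.25 and a range from -0.44 to 0.59. Their summed level was 3293 and 2679 CPM in the controls and 2898 and 3004 CPM in the knockdown libraries, and overlapped. H2afz, which encodes the variant H2A.Z, had a log2 fold change of -0.36 (SE 0.23, edgeR adjusted p = 0.431). H3f3b, for the variant H3.3, had one of 0.35 (SE 0.17, edgeR adjusted p = 0.316). H2afx, in this list, can also end in a stem-loop. It was at 345 and 227 CPM in the controls and 343 and 514 CPM in the knockdown libraries. Its groups overlapped, with knockdown replicate 2 highest (log2 fold change 0.58, SE 0.27, edgeR adjusted p = 0.279). Of the 11 genes, 3 had both knockdown libraries above both controls and 6 had both below, against 27.3% and 24.6% of all. Even in knockdown replicate 2 the 59 replication-dependent genes together gave fewer CPM, 840, than these 11 genes.

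Other RNAs without a poly(A) tail were not higher either. The list held 148 small nucleolar, small Cajal body, spliceosomal and other short noncoding RNAs, of which 63 were tested. None was called (0 of 63, with 4 at an unadjusted p under 0.05), 19 had a log2 fold change above 0, and the median was -0.30. Their summed level was 148 and 186 CPM in the controls and 121 and 141 CPM in the knockdown libraries. Snora65 was at 17.2 and 14.8 CPM in the controls and 12.1 and 14.1 CPM in the knockdown libraries, and Snora73a at 13.98 and 10.83 CPM against 8.57 and 8.44 CPM. Many of these RNAs are cut from introns, so their reads can also come from the unspliced host transcript. Whether the share of RNA without a tail that entered the libraries differed between them was not tested.

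**Figure D5:**
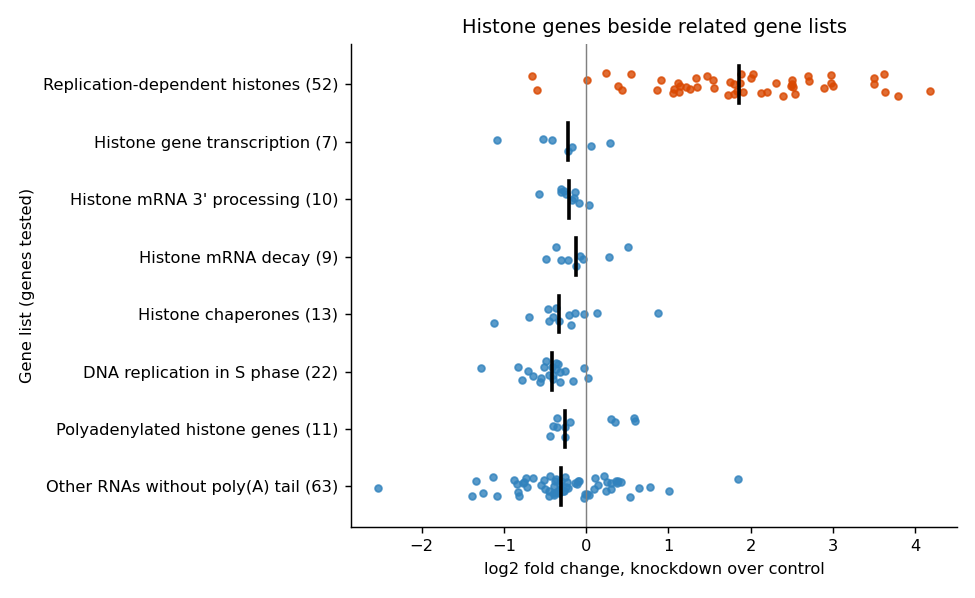
Log2 fold change (knockdown over control, edgeR) of each tested gene of the histone family, in orange, and of 7 related lists, in blue, with a black line at each median. The histone median of 1.85 stands apart from the medians of the other lists, which lie between -0.41 and -0.12.

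Markers of other cell types were checked beside these results. Of 7 primitive endoderm markers 6 were tested and 0 were called by edgeR, with a median log2 fold change of 1.16. At an unadjusted p under 0.05, 4 stood higher, against 11% of all tested genes. In 5 both knockdown libraries lay above both controls, against 27.3% of all. Levels were low: Sox17 was at 1.11 and 0.777 CPM and Sox7 at 0.633 and 0.674 CPM in the controls. Gata4, an endoderm transcription factor, was at 5.01 and 4.71 CPM in the controls and 15.4 and 6.50 CPM in the knockdown libraries (edgeR adjusted p = 0.203), and Pdgfra, a receptor of the same lineage, at 2.64 and 4.92 CPM against 8.99 and 7.53 CPM. Their summed level was 12.7 to 18.4 CPM in the controls and 40.4 and 29.7 CPM in knockdown replicates 1 and 2. It was higher in replicate 1, while the histone sum was higher in replicate 2. Of 9 fibroblast markers 4 were tested and 0 called, with 2 at an unadjusted p under 0.05. They summed to 25.1 and 33.1 CPM in the controls and to 11.1 and 11.8 CPM in the knockdown libraries, with Fap and Lum at 0 counts in all 4 libraries. Of 8 embryonic stem cell markers 1 was called lower, against 0.555% of all tested genes. This was Tdgf1, which encodes the NODAL coreceptor. Tdgf1 was at 1131 and 1550 CPM in the controls and 571 and 601 CPM in the knockdown libraries (log2 fold change -1.19, SE 0.21, edgeR adjusted p = 0.0438). The part of these cell types in the histone result was not tested. The calls of Ccne1, Chaf1b and Tdgf1 rest on both knockdown libraries. Without knockdown replicate 1 or without knockdown replicate 2, all 3 were lost (edgeR adjusted p = 0.0851 to 0.157), and with library totals as the only scaling those of Chaf1b (0.0508) and Tdgf1 (0.0585).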

How the data were processed

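Gene expression was measured by RNA-seq in 4 libraries of mouse E14 embryonic stem cells, 2 control and 2 knockdown, grouped by their titles. The table the authors deposited holds raw, unnormalized read counts per gene. Cutadapt, HISAT2 and featureCounts were used on build mm10, per the submitters' processing notes. Their versions, annotation and strand setting, and how reads that fit several genes were treated, were not given in the sources used here. Of 36068 rows, 92 were spike-ins with 0 counts and were left out, and 27 rows had symbols turned into dates.

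Genes were filtered with filterByExpr of edgeR 4.0.16 (R 4.3.3), which kept 16209 and removed 19767. Libraries were scaled by TMM (factors of 0.954, 1.01, 1.03 and 1.01) and compared with the quasi-likelihood F-test, adjusted by Benjamini-Hochberg and called at 0.05. Standard errors were taken as the absolute log2 fold change over the square root of F. Replicates differed beyond sampling noise (chi-square per degree of freedom of 30.8 between controls and 14.4 between knockdown libraries). Precision is limited by the number of libraries and, for members of few counts, by depth.

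The members and lists were chosen with earlier results of these data known. Named genes were the 4 most abundant members of each class, the 3 highest and 3 lowest log2 fold changes, called members, up to 6 tested members outside Hist1, and from each list up to 3 called genes or, with none called, the 2 most abundant. Slbp, Npat, Hist1h1e, Hist2h2be and H2afx were added after their values were seen. H2afx, listed with the polyadenylated histone genes, can also end in a stem-loop. Scaling (3 alternatives), filter (2), test (DESeq2 1.42.0, limma-voom of limma 3.58.1 and edgeR's likelihood ratio test) and a block for the replicate number were varied, members were left out of the scaling, and each library was left out. The edgeR procedure was tested on simulated counts.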

Additional observations from a re-analysis of the deposited data

How the results depend on the processing

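The set of members counted changed between the 16 alternatives run, from 34 to 67 genes. Members apart and higher numbered 40 of 52. They were 31 of 35 with more than 1 CPM in 2 libraries and 44 of 59 with no filter beyond 1 count. Among members with at least 50 counts in 1 library they were 30 of 34, and with at least 1 count 47 of 67. Over all genes 27.3% were apart and higher with all 4 libraries, and 51.9% apart in either direction. In 4 of the alternatives a library was left out, so that a group held 1 library and was more easily apart. Members apart and lower then numbered 4 without knockdown replicate 2 and 3 without control replicate 1, and 1 in all other settings. In the fits the median log2 fold change of the members kept its sign. The number of calls did not hold. Genes called numbered 232, and 1717 with no filter beyond 1 count, 1107 with DESeq2 and 1310 with the likelihood ratio test. Members called numbered 1, and 0 with library totals as the only scaling, 32 with no filter, 18 with DESeq2, 0 with limma-voom and 24 with the likelihood ratio test. Genes called in the related lists numbered 3, and 1 with library totals, 17 with no filter, 13 with DESeq2 and 12 with the likelihood ratio test. The cause of these differences was not tested. Over all tested genes, same-numbered libraries did not deviate together (r = -0.06 over genes within these 4 libraries), so the numbers were not taken as pairs. Among the 52 tested members, however, replicate 2 lay above replicate 1 in 40 for the controls and in 49 for the knockdown libraries. Whether same-numbered libraries share a shift in these genes was not tested. With the replicate block 647 genes, 16 members and 5 genes of the related lists were called. Leaving out each library in turn gave 153 to 587 genes, 0 to 24 members and 0 to 7 list genes called. It gave a median log2 fold change of the members of 0.93 to 2.50, lowest without knockdown replicate 2. The log2 ratio of the class sums then ran from 1.43 to 3.45 (H1), 0.69 to 2.56 (H2A), 1.08 to 2.57 (H2B), 0.95 to 2.65 (H3) and 1.30 to 2.93 (H4), again lowest without knockdown replicate 2. In these fits and with the block 1 residual degree of freedom was left, and a lone library was taken to vary as the other group does. The log2 fold change of Hist1h2ao, 0.011, turned to -0.012 (RLE scaling), -0.021 (upper quartile scaling), -0.0064 (no filter, DESeq2), -0.032 (limma-voom) and -0.015 (replicate block), and ran from -0.43 to 0.36 with 1 library left out. That of Hist1h2ap then ran from -1.29 to 0.38 and that of Srrt from -0.10 to 0.13, and the median of the transcription list was 0.08 without control replicate 2. Members of few counts are limited by depth, as the 10 counts of Hist4h4 in control replicate 1, 0.528 CPM, show.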
